A study of Drosophila melanogaster with 10 samples.

Results

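The genes described here are 9 cell death genes of Drosophila melanogaster, chosen by FlyBase symbol. They are the initiator caspase gene Dronc and its activator Dark, the effector caspase genes Drice and Dcp-1, the death inducers rpr, hid and skl, the caspase inhibitor Diap1, and the stress transcription factor gene Xrp1. All 9 had a row among the 17735 genes in the files, and 8 of the 9 passed the filter on low counts that left 10585 genes for testing; skl did not pass. Poly(A)-selected RNA of whole third-instar larvae was sequenced in 5 genotypes with 2 libraries each, to ask how expression depends on the CP190-binding regions of CTCF, Su(Hw) and Pita, which are DNA-binding zinc-finger proteins that share this cofactor. All larvae carried the y1w1118 strain background, and each RNA sample was drawn from 100 mg of pooled larvae. A temperature of 25 °C is given for every sample. The triple mutant carried dCTCFdeltaCP, SuHwdelta114 and PitadeltaCP1, and the CTCF Pita mutant carried dCTCFdeltaCP and PitadeltaCP1. The CTCF Su(Hw) mutant carried dCTCFdeltaCP and SuHwdelta114, the CTCF mutant carried dCTCFdeltaCP alone, and the wild type was labelled dCTCFwt. Every mutant therefore had the CTCF mutation, and neither the Su(Hw) nor the Pita mutation was measured with intact CTCF. The labels do not state how many independent fly lines stand behind a genotype, the sex or the exact age of the larvae. Nor do they state whether the mutant proteins were made from the native genes or from transgenes.

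In the fly, programmed cell death turns on a balance between caspases and the ubiquitin ligase Diap1, which holds them inactive. The small proteins Reaper, Hid, Grim and Sickle bind Diap1 and displace it, after which the apoptosome of Dark and Dronc activates the effector caspases Drice and Dcp-1. At the end of larval life the steroid hormone ecdysone induces rpr and hid ahead of the removal of the larval midgut. Xrp1 is known for its part in cell competition, the loss of ribosome-deficient cells among normal neighbours. Caspases are made as inactive precursors, so mRNA levels do not measure caspase activity.

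Levels are given as CPM, the usual counts relative to library size, after scaling of each library with a trimmed mean of M-values (TMM) factor. Differences are log2 fold changes with their standard error (SE) from edgeR's quasi-likelihood test, with p-values adjusted over all 10585 genes by the Benjamini-Hochberg method and called at 0.05. Libraries are named by genotype and replicate number. Between 5670793 and 8220126 reads per library were assigned to genes, so that 1 read stands for 0.0927 to 0.289 CPM. The CTCF Su(Hw) libraries differed by little more than counting error (chi-square per degree of freedom 1.785, against 14.35 to 41.41 in the other genotypes), so they may hold less than the full spread between samples. Among the mutated genes, pita stood at 192 ± 36.1 CPM in the triple and 160 ± 11.6 CPM in the CTCF Pita mutant (mean ± SD, n = 2), against 18.8 to 27.8 CPM in the other genotypes. The gene su(Hw) was raised in the same way in the genotypes with its mutation. CTCF mRNA did not check the labels, since it went both ways in the genotypes with dCTCFdeltaCP. It averaged 22.3 ± 5.98 CPM in the triple, 21.0 ± 0.115 in the CTCF Pita, 11.1 ± 0.0788 in the CTCF Su(Hw), 6.83 ± 1.80 in the CTCF and 14.1 ± 0.372 in the wild type larvae, and relative to wild type it was called higher in the triple and CTCF Pita mutants and lower in the CTCF mutant (edgeR adjusted p = 0.0344, 0.0435 and 0.0464). Markers of the third-instar fat body summed to 32400 to 76700 CPM in every library. In RNA of whole larvae, fewer cells of a type and less RNA per cell cannot be told apart.

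Per kilobase of exon not shared with another gene, Xrp1 was the most abundant of the 9 genes with a median of 59.0 CPM per kb over the 10 libraries (range 31.3 to 75.4), followed by Diap1 with 39.0 (29.8 to 47.6). The ranges of these genes overlapped each other but lay above those of the caspase genes among the 9, Drice, Dronc and Dcp-1. Other caspase genes were not put on this scale. Drice had a median of 15.6 CPM per kb (11.2 to 18.7), Dronc 8.38 (6.56 to 20.7) and Dcp-1 7.58 (4.87 to 16.2), with overlapping ranges. Dark (2.09, range 0.893 to 3.36), rpr (1.85, 0.321 to 6.47), hid (1.53, 0.864 to 3.24) and skl (0.552, 0.209 to 0.718) formed the lowest levels, again with no gap between neighbours other than that between skl and hid. The fourth death inducer gene of this family, grim, had 0 reads in the unstranded column of all 10 libraries, where 3 reads would stand for 0.278 to 0.868 CPM. Only 24.1% of its exon bases are free of overlap with another annotated gene, and a read in the rest is not counted.

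**Figure D1:**
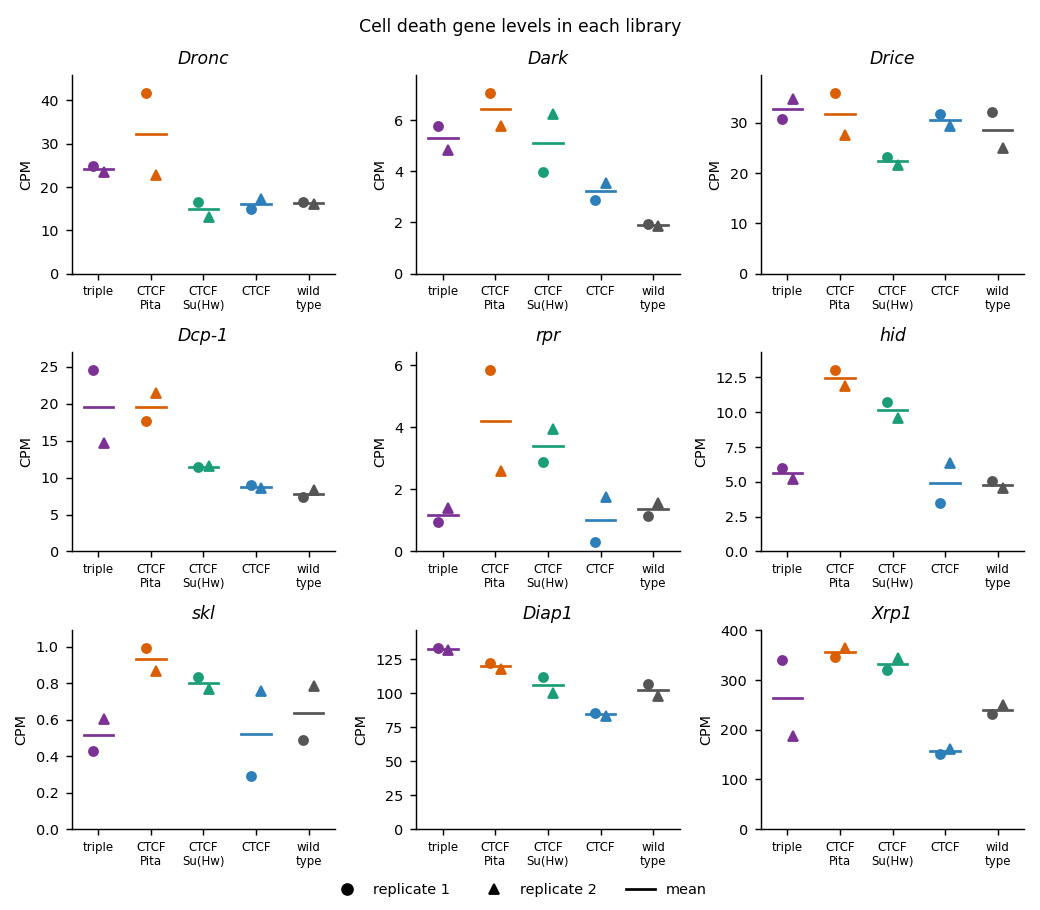
Scaled read counts (CPM) of the 9 cell death genes in every library, with a panel per gene, circles and triangles for replicates 1 and 2, and horizontal lines for the mean of each genotype; each vertical axis starts at 0 and has its own scale. The hid panel shows the CTCF Pita (11.9 and 13 CPM) and CTCF Su(Hw) libraries (9.58 and 10.7 CPM) above all the others, and the Xrp1 panel shows the triple libraries far apart, at 341 and 187 CPM.

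Of the death inducers, hid was called higher than wild type in both double mutants and rpr in the CTCF Pita mutant, while neither was called in the triple mutant and skl had too few reads to pass the filter. The gene hid (FBgn0003997; dm6 3L, 18167745 to 18185641, minus strand) encodes a Diap1 antagonist needed for much of developmental cell death. It had 5.99 and 5.23 CPM in the triple, 13 and 11.9 CPM in the CTCF Pita and 10.7 and 9.58 CPM in the CTCF Su(Hw) mutant. CTCF libraries had 3.47 and 6.32 CPM, and wild type had 5.06 and 4.54 CPM. All 4 double-mutant libraries lay above the other 6, and the CTCF libraries spanned the wild type. Against wild type, hid rose in the CTCF Pita mutant (log2 fold change 1.37, SE 0.24, edgeR adjusted p = 0.00163) and in the CTCF Su(Hw) larvae (1.07, SE 0.24, edgeR adjusted p = 0.00654). The triple mutant differed from wild type by 0.24 (95% interval -0.33 to 0.81, adjusted p = 0.551) and the CTCF mutant by 0.05 (-0.60 to 0.70, adjusted p = 0.958). The call in the CTCF Su(Hw) mutant was lost without wild type 2 (adjusted p = 0.0562) or CTCF Su(Hw) 1 (0.0600). These comparisons share the wild type libraries, so they are not independent of one another.

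The gene rpr (FBgn0011706; 3L, 18397535 to 18398435, minus strand), which encodes Reaper, was likewise highest in the double mutants, at much lower counts. It had 9 and 7 reads (0.963 and 1.41 CPM) in the triple, 47 and 27 (5.83 and 2.60 CPM) in the CTCF Pita, and 31 and 41 (2.87 and 3.93 CPM) in the CTCF Su(Hw) mutant. The CTCF mutant had 1 and 7 (0.289 and 1.77 CPM), and wild type had 7 and 10 (1.14 and 1.57 CPM). Every double-mutant library was above every other library. The gene passed the filter on low counts only through these double-mutant libraries. Its calls and its interaction are therefore not separate from that pattern. The rise in the CTCF Pita mutant over wild type passed the test (1.59, SE 0.54, edgeR adjusted p = 0.0373). It did not pass without wild type 1 (0.189), wild type 2 (0.101), CTCF Su(Hw) 1 (0.0667), CTCF Su(Hw) 2 (0.0681) or CTCF Pita 1 (0.262, with a log2 fold change of 0.92), nor with the CTCF Su(Hw) libraries summed (0.066). In the CTCF Su(Hw) mutant the difference of 1.31 from wild type was not called (95% interval 0.12 to 2.50, adjusted p = 0.0826).

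The gene skl (FBgn0036786; 3L, 18438561 to 18439942, minus strand), which encodes Sickle, had 1 to 9 reads per library. It had 4 and 3 reads in the triple, 8 and 9 in the CTCF Pita, 9 and 8 in the CTCF Su(Hw), 1 and 3 in the CTCF mutant and 3 and 5 in the wild type libraries. Its means lay between 0.516 and 0.930 CPM, and when no filter was applied no comparison was called (adjusted p = 0.395 to 1). A difference in skl was not detectable at this depth. The genes hid, rpr and skl lie within 272 kb of 3L, where 4 of the 12 other annotated genes were tested. Of these, CG13700 rose in the CTCF Pita mutant by 3.39 and CG5103 by 3.70 on the log2 scale, and CG7320 fell by 0.71 (edgeR adjusted p = 0.00166, 0.00423 and 0.0111). In the triple mutant, where hid and rpr were not called, CG13700 was still higher than wild type by 3.02 (edgeR adjusted p = 0.00542), CG7320 was lower by 1.27 (0.000738 after adjustment), and the noncoding gene lncRNA:CR45936 was called higher (edgeR adjusted p = 0.00145). The roles of these CG genes are not annotated in the files. CG5103 was not called in the triple (2.45, adjusted p = 0.0819). In the CTCF Su(Hw) mutant CG5103 and CG13700 rose over wild type by 2.81 and 2.63 (edgeR adjusted p = 0.0254 and 0.00912). Their interactions of -3.37 and -2.27 were called (edgeR adjusted p = 0.0204 and 0.0322), as were those of hid and rpr. CG7320 was called in neither comparison. Of all genes, 37.8%, 33.3% and 21.2% were called in the CTCF Pita, CTCF Su(Hw) and triple mutants, and 45.3% in the interaction. For lncRNA:CR45936 the log2 fold change was 8.26 in the triple over wild type and over each double mutant. It was 0 in every comparison between the other genotypes, and the interaction of this gene was not called. Such values point to reads in the triple libraries alone, through which the gene would have passed the filter on low counts. Its call is therefore not separate from that pattern, and the size of its change has no measured base.

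The interaction asks whether adding the Su(Hw) mutation has the same effect with and without the Pita mutation on the CTCF background. When the Su(Hw) mutation was added to the CTCF Pita mutant, hid fell by 1.13 (SE 0.23) and rpr fell by 1.85 (SE 0.55) on the log2 scale (edgeR adjusted p = 0.00971 and 0.0406). When it was added to the CTCF mutant, hid rose by 1.03 (SE 0.26, edgeR adjusted p = 0.00959), and rpr differed by 1.65 without passing the test (95% interval 0.23 to 3.07, adjusted p = 0.0608). The interaction was -2.15 (SE 0.35, edgeR adjusted p = 0.000852) for hid and -3.50 (SE 0.84, edgeR adjusted p = 0.00673) for rpr, and both were called in all 18 alternative analyses. For rpr these calls are no separate support, since the gene passed the filter on low counts only through the double-mutant libraries. The separate steps rested more on single libraries. The fall of hid was not called without triple 2 (0.0533), and its rise was not called without CTCF 1 (0.102, with a log2 fold change of 0.64) or CTCF Su(Hw) 1 (0.0606). The fall of rpr was not called without wild type 1 (0.0576), wild type 2 (0.0568), CTCF Su(Hw) 1 (0.0827), CTCF Su(Hw) 2 (0.0836), CTCF Pita 1 (0.229), triple 1 (0.166) or triple 2 (0.118). Its difference between the CTCF Su(Hw) and CTCF mutants was called without CTCF 2 (3.47, adjusted p = 0.0359, with 1 rpr read in the CTCF library left), CTCF Pita 1 (0.0457) or CTCF Pita 2 (0.0420).

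The steps of adding the Pita mutation had the same signs. Added to the CTCF mutant, it raised hid by 1.32 (SE 0.26, edgeR adjusted p = 0.00228) and rpr by 1.93 (SE 0.64, edgeR adjusted p = 0.0301), the rise of rpr being lost without CTCF 1 (0.205) or CTCF Pita 1 (0.172). Added to the CTCF Su(Hw) mutant, hid fell by 0.83 (SE 0.23, edgeR adjusted p = 0.0243), and rpr differed by -1.57 (95% interval -2.77 to -0.36, adjusted p = 0.0613). The fall of hid was not called without CTCF Su(Hw) 1 (0.157), CTCF Su(Hw) 2 (0.106) or triple 2 (0.0991), while rpr was called without CTCF Pita 1 (0.0465) or CTCF Pita 2 (0.0418).

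**Figure D2:**
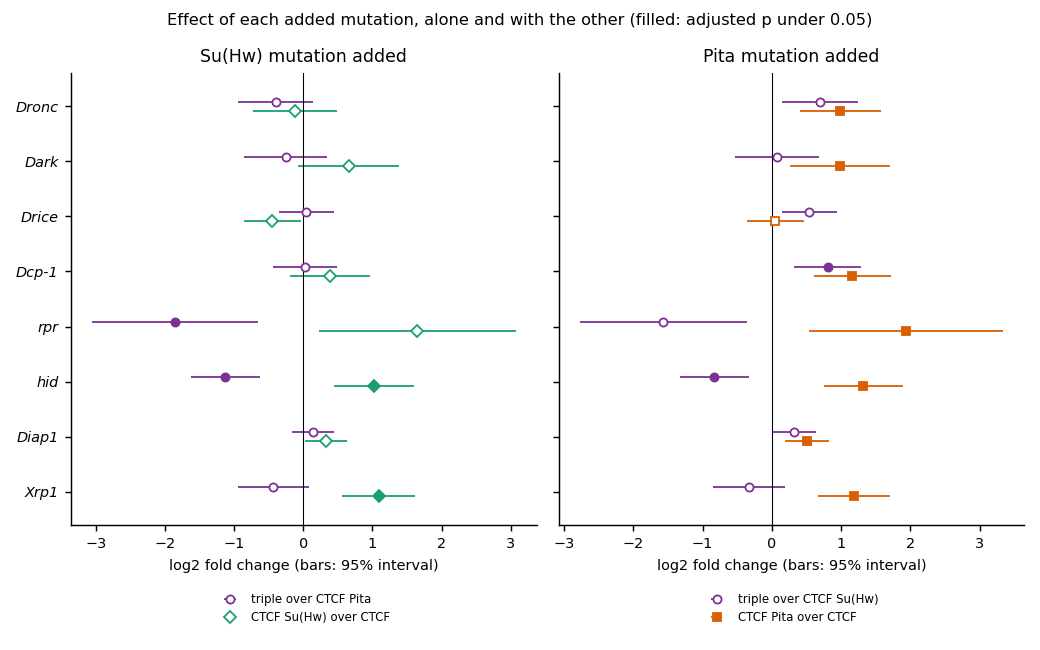
Log2 fold changes of the 8 tested cell death genes when the Su(Hw) mutation (left) or the Pita mutation (right) was added, with the other mutation present (triple over a double mutant) or absent (double over the CTCF mutant); bars are 95% intervals and filled symbols have an adjusted p under 0.05. For hid the Su(Hw) step is -1.13 with the Pita mutation and 1.03 without it.

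Xrp1 (FBgn0261113; 3R, 18914968 to 18926989, plus strand) was the third of the 8 genes with a called interaction; it encodes a bZIP transcription factor. It had 341 and 187 CPM in the triple, 347 and 364 CPM in the CTCF Pita and 321 and 344 CPM in the CTCF Su(Hw) mutant. Larvae with the CTCF mutation alone had 151 and 162 CPM, and wild type had 232 and 249 CPM. The CTCF libraries were the lowest of the 10, the double-mutant libraries lay above wild type, and the triple libraries lay on either side of it. Over the CTCF mutant, Xrp1 rose in the CTCF Pita mutant (log2 fold change 1.18, SE 0.24, edgeR adjusted p = 0.00278) and in the CTCF Su(Hw) larvae (1.09, SE 0.24, edgeR adjusted p = 0.00465; 0.0541 without CTCF 1). The triple mutant differed by -0.43 from the CTCF Pita mutant (95% interval -0.94 to 0.09, adjusted p = 0.225) and by -0.33 from the CTCF Su(Hw) mutant (-0.85 to 0.19, adjusted p = 0.336). The interaction was -1.51 (SE 0.34, edgeR adjusted p = 0.00446) and was called in all 18 alternatives, with values of -2.0 without triple 1 and -1.13 without triple 2.

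Against wild type, Xrp1 was not called in any mutant: the log2 fold change was 0.14 in the triple, 0.56 in the CTCF Pita (adjusted p = 0.0498 with DESeq2), 0.47 in the CTCF Su(Hw) and -0.62 in the CTCF mutant (adjusted p = 0.722, 0.0812, 0.146 and 0.195). The triple libraries had an SD of 109 CPM, against 7.4 to 16.1 CPM in the other genotypes. Without triple 1 or triple 2, Xrp1 was called higher in the CTCF Pita mutant (adjusted p = 0.0062 in both cases) and in the CTCF Su(Hw) larvae (0.0146 and 0.0148), and lower in the CTCF mutant (0.0178 and 0.0175). The triple mutant was called higher than wild type without triple 2 (0.0362), and lower than the CTCF Pita mutant (0.00368) and the CTCF Su(Hw) mutant (0.00379) without triple 1. A call in the triple mutant therefore depended on which of its libraries was kept.

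Of the effector caspase genes, Dcp-1 was called against wild type in both genotypes with the Pita mutation and Drice in none. Dcp-1 (FBgn0010501; 2R, 23551313 to 23553547, plus strand) encodes an effector caspase. It had 24.5 and 14.7 CPM in the triple, 17.7 and 21.5 CPM in the CTCF Pita and 11.4 and 11.5 CPM in the CTCF Su(Hw) mutant. The CTCF mutant had 8.97 and 8.59 CPM, and wild type had 7.35 and 8.30 CPM. Both genotypes with the Pita mutation lay above all other libraries. Against wild type it rose by 1.35 (SE 0.24, edgeR adjusted p = 0.00244) in the triple and by 1.33 (SE 0.24, edgeR adjusted p = 0.00197) in the CTCF Pita mutant, and both calls held in all 18 alternatives. The difference was 0.55 in the CTCF Su(Hw) mutant (95% interval 0.01 to 1.08, adjusted p = 0.104, but 0.0298 without triple 1 and 0.0303 without triple 2) and 0.16 in the CTCF mutant (-0.46 to 0.79, adjusted p = 0.804).

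Adding the Pita mutation raised Dcp-1 by 1.16 over the CTCF mutant (SE 0.25, edgeR adjusted p = 0.00405) and by 0.81 over the CTCF Su(Hw) mutant (SE 0.22, edgeR adjusted p = 0.0236). The second of these was not called without CTCF Su(Hw) 1 (0.143), CTCF Su(Hw) 2 (0.146) or triple 1 (0.201, with a log2 fold change of 0.36). Adding the Su(Hw) mutation to the CTCF Pita mutant left a difference of 0.03 (-0.44 to 0.49, adjusted p = 0.944). The interaction was -0.36 (95% interval -1.10 to 0.38, adjusted p = 0.404; -0.79 and 0.0344 without triple 1).

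Drice (FBgn0019972; 3R, 29799658 to 29801584, plus strand) encodes the main effector caspase in most fly tissues. It had 30.8 and 34.8 CPM in the triple, 36.0 and 27.6 CPM in the CTCF Pita and 23.2 and 21.6 CPM in the CTCF Su(Hw) mutant. CTCF libraries had 31.8 and 29.3 CPM, and wild type had 32.2 and 24.9 CPM. No comparison of Drice was called. The closest was the triple against the CTCF Su(Hw) mutant (log2 fold change 0.54, 95% interval 0.15 to 0.94, adjusted p = 0.052). That comparison was called without CTCF Pita 1 (0.037), CTCF Pita 2 (0.0383) or triple 1 (0.0496). Scaling by library totals, which raised the median of all genes by 1.06 in the step, turned the difference between the CTCF Su(Hw) and CTCF mutants, -0.45 and not called, into 0.62 (adjusted p = 0.0263), while with the summed stranded columns it was called lower (-0.51, adjusted p = 0.0413). The intervals against wild type ran from -0.75 to 0.60 over the triple, both double mutants and the CTCF mutant. Across the 10 libraries, which share these genotype differences, log2 CPM of Dcp-1 and Drice had a Pearson correlation of 0.21, against 0.90 for rpr and hid.

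Dcp-1 lies within the span of pita (FBgn0034878; 2R, 23548967 to 23554712), the gene raised in the same genotypes, on the opposite strand. Its first 239 exon bases, 23551313 to 23551551, are shared with an exon of a pita transcript, and 86.3% of its 1749 exon bases are free of any overlap. In the unstranded column a read over the shared bases was not counted for either gene, so pita reads there do not enter the Dcp-1 values above, while reads of pita introns elsewhere in Dcp-1 exons would. In the sum of the deposited stranded columns, where such reads count for both genes, the share of Dcp-1 reads added by them was 19.3% in the triple, 19.4% in the CTCF Pita, 16.2% in the CTCF Su(Hw), 12.2% in the CTCF and 22.2% in the wild type larvae. With these sums the rise over wild type was 1.29 in the triple (SE 0.24, edgeR adjusted p = 0.003) and 1.28 in the CTCF Pita mutant (SE 0.24, edgeR adjusted p = 0.00223). Of the 7 other genes tested within 20 kb of pita, none was called higher against wild type in the triple or CTCF Pita mutant. Over all genes, 10.9% and 18.6% were called higher there, and 10.3% and 19.2% lower. Among the 7 genes, 3 were lower in the triple and 4 in the CTCF Pita mutant, including levy (-0.80 and -1.26), a subunit gene of cytochrome c oxidase. In the CTCF Su(Hw) mutant, which lacks the Pita mutation, 4 of the 7 were lower as well, levy by 1.44 on the log2 scale. There, 17.4% of all genes were called lower.

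**Figure D3:**
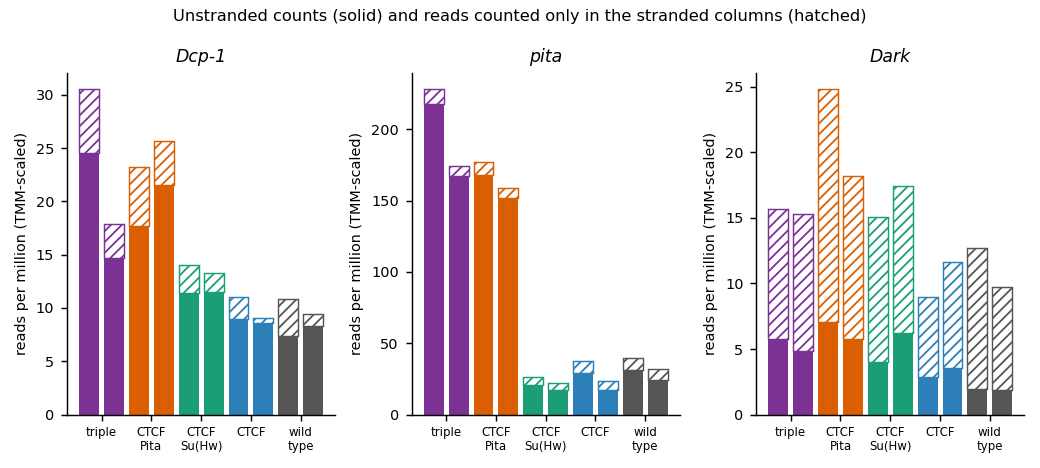
TMM-scaled reads of Dcp-1, pita and Dark, a bar per library, with solid bars for the unstranded column and hatched tops for reads that only the stranded columns count. Of the whole bar per genotype, the hatched part is 12.2% to 22.2% for Dcp-1 and 65.0% to 82.9% for Dark.

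Dark (FBgn0263864; 2R, 17020027 to 17026703, plus strand), the scaffold on which Dronc is activated, was higher in every mutant library than in wild type. It had 5.78 and 4.82 CPM in the triple, 7.07 and 5.78 CPM in the CTCF Pita and 3.99 and 6.22 CPM in the CTCF Su(Hw) mutant. Larvae with the CTCF mutation alone had 2.89 and 3.54 CPM, and wild type had 1.96 and 1.88 CPM. Dark rose in the triple (log2 fold change 1.48, SE 0.34, edgeR adjusted p = 0.00951), the CTCF Pita (1.73, SE 0.32, edgeR adjusted p = 0.00247) and the CTCF Su(Hw) mutant (1.40, SE 0.33, edgeR adjusted p = 0.00837). The CTCF mutant differed by 0.75 (95% interval -0.13 to 1.62, adjusted p = 0.337). The triple call was lost without wild type 1 (0.0540), wild type 2 (0.0657) or triple 1 (0.0534). The CTCF Su(Hw) call was lost without wild type 1 (0.0553), wild type 2 (0.0532) or CTCF Su(Hw) 2 (0.0898). Over the CTCF mutant the CTCF Pita mutant was higher by 0.98 (SE 0.33, edgeR adjusted p = 0.0315; not called without CTCF 1, CTCF 2 or CTCF Pita 1, at 0.170, 0.0859 and 0.118, nor with DESeq2, at 0.0958).

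These Dark values rest on part of the gene, with 24 reads in the wild type and 24 in the CTCF mutant over both libraries. An annotated antisense RNA, asRNA:CR44390, shares 2779 of the 4883 exon bases of Dark, and the unstranded column counts none of the reads there. In the summed stranded columns Dark had 14.6 CPM in the triple, 20.3 in the CTCF Pita, 15.3 in the CTCF Su(Hw), 9.51 in the CTCF and 10.6 in the wild type larvae. On these sums the rise over wild type was 0.93 in the CTCF Pita mutant (SE 0.21, edgeR adjusted p = 0.00569), while the triple (0.46, adjusted p = 0.146) and the CTCF Su(Hw) mutant (0.54, adjusted p = 0.0664) were not called. Reads from Dark and from its antisense partner cannot be told apart in an unstranded library, so which of these sets of values stands for Dark mRNA is not known.

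Dronc (FBgn0026404; 3L, 9968479 to 9971002, plus strand) encodes the initiator caspase. It had 24.8 and 23.5 CPM in the triple, 41.8 and 22.7 CPM in the CTCF Pita and 16.6 and 13.2 CPM in the CTCF Su(Hw) mutant. The CTCF mutant had 15.0 and 17.2 CPM, and wild type had 16.5 and 16.0 CPM. The 4 libraries with the Pita mutation were the highest, and CTCF Pita 1 stood far above the rest. Dronc rose in the CTCF Pita mutant over wild type (0.98, SE 0.25, edgeR adjusted p = 0.0122) and over the CTCF mutant (0.99, SE 0.27, edgeR adjusted p = 0.0125). Without CTCF Pita 1 the rise over wild type was 0.47 and not called (0.0967), nor was it without wild type 1 (0.0704) or wild type 2 (0.0712). Over the CTCF mutant it was not called without CTCF 1 (0.103), CTCF 2 (0.0563) or CTCF Pita 1 (0.0950). The triple mutant differed from wild type by 0.58 (95% interval 0.00 to 1.15, adjusted p = 0.140). The triple call was gained without CTCF Pita 1 (0.0335) or CTCF Pita 2 (0.0330). Against the CTCF Su(Hw) mutant the triple differed by 0.70 (adjusted p = 0.0686) and was called higher without CTCF Pita 1 (0.0126) or CTCF Pita 2 (0.0129). Against the CTCF Pita mutant it was called lower without CTCF Pita 2 (-0.77, adjusted p = 0.0277).

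Diap1 (FBgn0260635; 3L, 16038410 to 16051034, minus strand) encodes the caspase inhibitor. It had 133 and 132 CPM in the triple, 122 and 118 CPM in the CTCF Pita and 112 and 100 CPM in the CTCF Su(Hw) mutant. CTCF libraries had 85.7 and 83.4 CPM, and wild type had 107 and 97.7 CPM. The spread was narrow, and no difference from wild type was called (0.38 in the triple, adjusted p = 0.0782; 0.23, 0.06 and -0.27 in the CTCF Pita, CTCF Su(Hw) and CTCF mutants). Diap1 rose in the CTCF Pita mutant over the CTCF mutant (0.51, SE 0.14, edgeR adjusted p = 0.0142), a call lost without CTCF 1 (0.0796), CTCF 2 (0.0836) or CTCF Pita 1 (0.0625).

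Counted together against wild type, 2 of the 8 tested genes were called in the triple mutant (Dcp-1 and Dark, both higher), where 21.2% of all genes tested were called, 10.9% higher and 10.3% lower. In the CTCF Pita mutant 5 of 8 were called (Dcp-1, Dronc, rpr, hid and Dark), all higher, where 37.8% of all genes were called, 18.6% higher and 19.2% lower. The median log2 fold change was 1.15 over the 8 genes and 0.00 over all genes. Both figures for the 8 genes include rpr, which passed the filter only through the double-mutant libraries. In the CTCF Su(Hw) mutant 2 of 8 were called (hid and Dark, both higher), against 33.3% of all genes, 15.8% higher and 17.4% lower. In the CTCF mutant edgeR called 0 of 8, against 3.37% of all genes, 2.2% higher and 1.17% lower (357 genes called, and 2019 at an unadjusted p under 0.05). Among the 8 genes Xrp1 had the smallest unadjusted p (0.0244), and DESeq2 also called 0.

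Between mutants, 2 of 8 (rpr and hid) were called in the triple against the CTCF Pita mutant, both lower, where 16.8% of all genes were called, 9.87% higher and 6.88% lower. There were also 2 of 8 (Dcp-1 and hid) in the triple against the CTCF Su(Hw) mutant, one higher and one lower, where 22.6% of all genes were called, 12.1% higher and 10.4% lower. Both of these calls were lost with DESeq2 (adjusted p = 0.0525 and 0.0784) and with the CTCF Su(Hw) libraries summed (0.127 and 0.115). In the CTCF Pita against the CTCF mutant 7 of 8 were called, all higher and all but Drice, where 44.1% of all genes were called, 21.4% higher and 22.6% lower. In the CTCF Su(Hw) against the CTCF mutant 2 of 8 (hid and Xrp1) were called, both higher, against 41.4% of all genes, 20% higher and 21.4% lower. In the interaction 3 of 8 (rpr, hid and Xrp1) were called, all negative, against 45.3% of all genes, 23.2% positive and 22.1% negative. Over both directions together, a members' share of 25% is 2 of 8 genes. That is too few to set apart from the 16.8% to 41.4% of all genes called in the comparisons with this share. The share of 37.5% in the interaction, 3 of 8, cannot be set apart from 45.3% either. Counts that include rpr carry the limit of its filter given above.

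**Figure D4:**
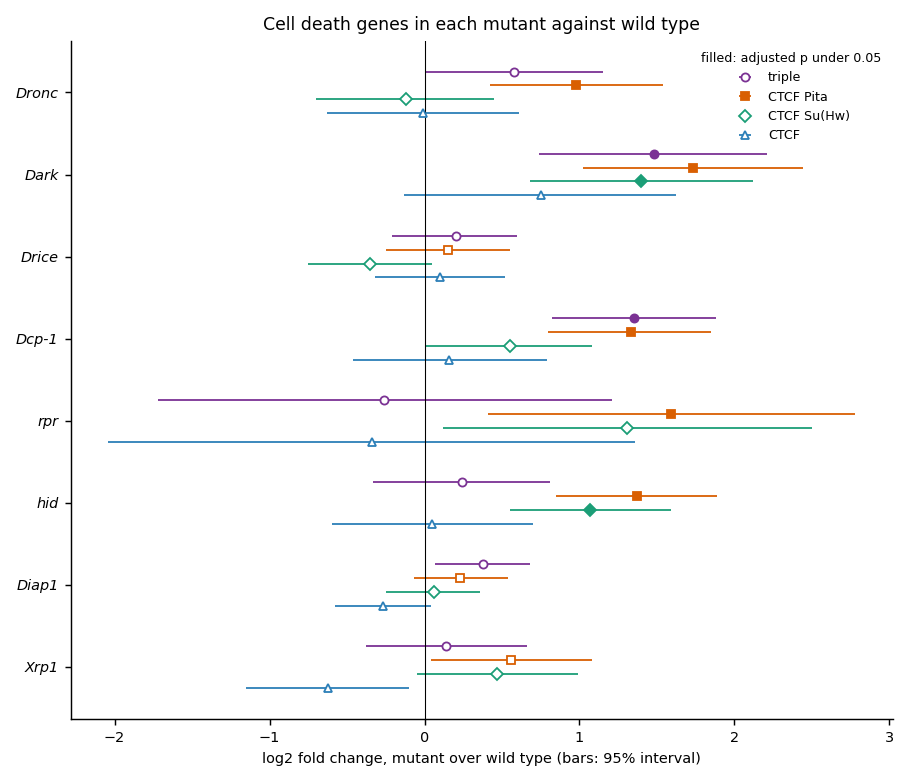
Log2 fold changes of the 8 tested cell death genes in each mutant over wild type, with 95% intervals; filled symbols have an adjusted p under 0.05. In the CTCF Pita mutant 5 genes are filled and all of these lie above 0, while no symbol of the CTCF mutant is filled.

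Other genes of the cell death machinery were read from lists. Of the 4 other caspase genes, 3 rose in the triple mutant over wild type, and in the CTCF Pita mutant edgeR and DESeq2 called 0 (2 had an unadjusted p under 0.05). Of all genes, 10.9% were called higher in the triple. With the mean log2 level of the salivary glue genes, a marker of larval stage, as a covariate, none of the 3 was called (adjusted p = 0.501 for Damm, 0.231 for Decay and 0.0586 for Strica). Every mutant library had a higher glue level than wild type. Over wild type, this covariate and the mutant genotypes therefore cannot be told apart. Damm, which encodes an effector-type caspase, had 102 and 99.5 CPM in the triple, 37.6 and 53.3 CPM in the CTCF Pita and 19.0 and 20.7 CPM in the CTCF Su(Hw) mutant. Larvae with the CTCF mutation alone had 105 and 59.9 CPM, and wild type had 57.8 and 38.7 CPM. It rose by 1.06 in the triple (edgeR adjusted p = 0.0157; not called without wild type 2 or triple 1, at 0.140 and 0.0523). It fell by 1.28 in the CTCF Su(Hw) mutant (edgeR adjusted p = 0.00585; not called without wild type 1, CTCF Su(Hw) 1 or CTCF Su(Hw) 2, at 0.0675, 0.0616 and 0.0524). For Damm the interaction was 3.20 (edgeR adjusted p = 0.00033, called in all 18 alternatives), which is opposite in sign to those of hid, rpr and Xrp1. Decay, another effector-type caspase gene, rose in the triple mutant to 80.3 ± 2.66 CPM against 38.7 ± 11.3 CPM in wild type (n = 2; log2 fold change 1.05, edgeR adjusted p = 0.0031). Strica, a caspase gene with a long prodomain, rose by 0.77 (edgeR adjusted p = 0.00925; 0.0859 without wild type 1). Dredd, the caspase of the Imd immune pathway, was not called.

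Among 15 other regulators of apoptosis, 1 rose and 2 fell in the triple, 1 rose and 3 fell in the CTCF Pita, and 3 rose and 4 fell in the CTCF Su(Hw) mutant over wild type, with medians of 0.06, -0.20 and -0.38. The gene dnr1, which encodes an inhibitor of Dredd and Dronc, rose by 1.29 in the triple and by 1.04 in the CTCF Su(Hw) mutant (edgeR adjusted p = 0.0011 and 0.00352, each called in all 18 alternatives). It differed by 0.36 in the CTCF Pita mutant (adjusted p = 0.18). Cyt-c-p, the gene of respiratory cytochrome c, fell by 1.12, 0.96 and 1.17 in the triple, CTCF Pita and CTCF Su(Hw) mutants (edgeR adjusted p = 0.0029, 0.00485 and 0.00234). These calls were lost with the glue gene covariate in the triple (0.117) and CTCF Pita mutants (0.304), and under scaling by library totals in the CTCF Pita (0.203) and CTCF Su(Hw) mutants (0.0779). Over wild type, the glue gene covariate cannot be told apart from the mutant genotypes. Of 12 genes of the p53 and DNA damage response, 1 rose in the triple, 2 in the CTCF Pita and 1 in the CTCF Su(Hw) larvae, while none fell. Of 7 tested partners and stress-response genes around Xrp1, 2 rose in the triple, and 1 rose and 1 fell in each double mutant. Beside these counts, 10.9%, 18.6% and 15.8% of all genes were called higher in the triple, CTCF Pita and CTCF Su(Hw) mutants. The shares called lower were 10.3%, 19.2% and 17.4%.

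Genes of the Jun kinase pathway, which can induce rpr and hid in stressed epithelia, were called higher in 5 of 13 in the triple, 5 of 13 in the CTCF Pita and 7 of 13 in the CTCF Su(Hw) larvae, relative to wild type. None was lower, with medians of 0.43, 0.39 and 0.50. Over all genes, 10.9%, 18.6% and 15.8% were called higher in these mutants, and 10.3%, 19.2% and 17.4% lower. Leaving out single libraries moved these counts to 2 to 6, 4 to 5 and 3 to 7, and the glue gene covariate left 0, 0 and 3. Over wild type, the glue gene covariate cannot be told apart from the mutant genotypes, whose glue levels were all higher. The pathway's phosphatase and target gene puc rose to 53.4 ± 3.62 CPM in the triple, 61.4 ± 4.88 in the CTCF Pita and 68.8 ± 0.285 in the CTCF Su(Hw) mutant, against 26.6 ± 0.335 in wild type (n = 2 each; edgeR adjusted p = 0.00124, 0.000389 and 0.000225). The gene puc differed by -0.20 between the triple and the CTCF Pita mutant (edgeR adjusted p = 0.385). In the interaction 7 of the 13 Jun kinase genes were called negative and 1 positive (median -0.85), beside 22.1% and 23.2% of all genes. Of 6 tested engulfment genes, which act in the uptake of dying cells, 2 rose in the triple (crq by 0.96 and mbc by 0.75, edgeR adjusted p = 0.00343 and 0.00327), 2 in the CTCF Pita and 1 in the CTCF Su(Hw) mutant. Of 14 autophagy genes, 1 rose in the triple, 4 rose and 2 fell in the CTCF Pita, and 3 rose and 1 fell in the CTCF Su(Hw) mutant. The engulfment and autophagy counts stand beside the same shares of all genes called higher and lower. Over these 7 lists together, 17 of 71 tested genes were called in the triple, 21 in the CTCF Pita and 23 in the CTCF Su(Hw) larvae, beside 21.2%, 37.8% and 33.3% of all genes. With the CTCF mutation alone edgeR called 0 of the 71, of which 8 had an unadjusted p under 0.05, and DESeq2 called 0.

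**Figure D5:**
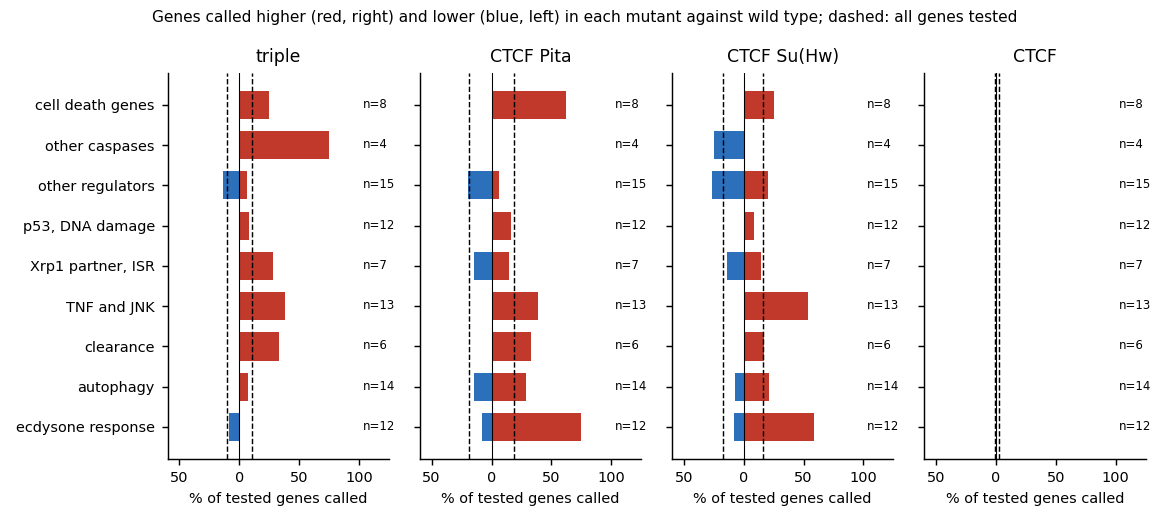
Percent of tested genes of each list called higher (red, to the right) or lower (blue, to the left) in each mutant over wild type, with the number tested; dashed lines show the same over all genes. The Jun kinase list has 5, 5 and 7 of 13 genes higher in the triple, CTCF Pita and CTCF Su(Hw) mutants, and the ecdysone response list has 0, 9 and 7 of 12.

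Ecdysone response genes were called higher more often than all genes in both double mutants. Few of these calls held with the glue gene covariate, which over wild type cannot be told apart from the mutant genotypes. The covariate also lowered the number of all genes called in these mutants. The 12 tested ecdysone receptor and response genes had 0 called higher and 1 lower in the triple, 9 higher and 1 lower in the CTCF Pita, and 7 higher and 1 lower in the CTCF Su(Hw) mutant, relative to wild type, where 10.9%, 18.6% and 15.8% of all genes were called higher. The gene called lower in both double mutants was MsrA. Leaving out single libraries gave 0 to 2, 6 to 9 and 0 to 7 higher, and the glue gene covariate left 0, 2 and 1. Summed over 13 genes they reached 343 to 404 CPM in the triple, 598 to 697 in the CTCF Pita and 455 to 496 in the CTCF Su(Hw) mutant. The sums were 387 to 454 CPM in the CTCF and 336 CPM in both wild type libraries. In the interaction 7 of the 12 tested genes were called negative and 1 positive (median -1.27), beside 22.1% and 23.2% of all genes. The gene br, an early ecdysone target needed for metamorphosis, fell by 1.02 in the triple against the CTCF Pita mutant (edgeR adjusted p = 0.00394, called in all 18 alternatives).

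Salivary glue genes, made shortly before pupariation, summed to 634 and 2850 CPM in the triple, 3510 and 2580 in the CTCF Pita, and 958 and 1010 in the CTCF Su(Hw) mutant. The CTCF libraries summed to 1470 and 681 CPM and wild type to 332 and 17.9 CPM. With the mean log2 level of the glue genes as a covariate, the rise over wild type was no longer called for hid and Dark in the CTCF Pita mutant (1.5, adjusted p = 0.101, and 1.84, adjusted p = 0.137), nor for Dronc and rpr (0.89, adjusted p = 0.319, and 1.91, adjusted p = 0.372). Also lost were the calls of hid and Dark in the CTCF Su(Hw) mutant (1.16, adjusted p = 0.0693, and 1.48, adjusted p = 0.0891) and of Dark in the triple (1.56, adjusted p = 0.142) over wild type. Between mutants, the calls of rpr, Diap1 and Dark in the CTCF Pita over the CTCF mutant (2.06, 0.44 and 1.03, adjusted p = 0.0768, 0.0615 and 0.0902) and of rpr in the triple against the CTCF Pita mutant (-1.95, adjusted p = 0.0613) were lost. Except for Dronc and Diap1, each of these log2 fold changes was larger in size than without the covariate. The mean log2 level of the glue genes was 4.89 and 1.04 in wild type, below every mutant library (5.55 to 8.67). Over wild type, the covariate and the mutant genotypes therefore cannot be told apart, whether a call was lost or kept. Over all genes 1164 rather than 4001 were called in the CTCF Pita mutant over wild type. The interactions of hid, rpr and Xrp1 were -2.20, -3.62 and -1.71 with this covariate and remained called (adjusted p = 0.00162, 0.0126 and 0.00281), as did the rise of Dcp-1 in both genotypes with the Pita mutation. The neuronal markers, 8 genes, summed to 131 to 168 CPM in the triple, 202 to 204 in the CTCF Pita, and 302 to 328 in the CTCF Su(Hw) mutant. The CTCF libraries summed to 124 to 136 CPM and wild type to 145 to 161 CPM, and all 8 had a called negative interaction, where 22.1% of all genes did. Blood cell markers, 8 genes, had 3 lower in the triple, 5 lower in the CTCF Pita, 2 higher and 1 lower in the CTCF Su(Hw) and 1 lower in the CTCF mutant over wild type. Over all genes, 10.9%, 18.6%, 15.8% and 2.2% were called higher in the triple, CTCF Pita, CTCF Su(Hw) and CTCF mutants. The shares called lower were 10.3%, 19.2%, 17.4% and 1.17%. Of 5 tested germline markers edgeR and DESeq2 called 0 in these comparisons, where at most 1 had an unadjusted p under 0.05. Of 6 fat body markers, 1 was higher and 2 lower in the triple, 1 was higher in each double mutant, and 2 were higher in the CTCF mutant over wild type (Lsp1alpha by 1.91 and Fbp1 by 2.70, edgeR adjusted p = 0.00303 and 0.00711). Fbp1 was not called there without wild type 2 (0.0921) or CTCF 2 (0.0589). The part of larval stage and tissue share in the levels of the death inducers was not tested beyond these values.

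As a description of pattern, the genes most like each member were ranked by the Pearson correlation of log2 CPM over the 10 libraries, among 7575 or 7576 genes with a mean of at least 5 CPM. The libraries share genotype and depth, and each named gene ranked highest among all of these. For hid these were X11L, kek1 and JIL-1 (0.972, 0.968 and 0.962), for Xrp1 Bsg, Akap200 and Lk6 (0.989, 0.986 and 0.977), for Dcp-1 PGRP-LB, Syx6 and Tab2 (0.947, 0.938 and 0.937), and for Diap1 SLC22A, oys and yki (0.964, 0.958 and 0.946). The most similar gene to Dronc was Tpr2 (0.960), to rpr dtn (0.953), to Dark Map205 (0.943) and to Drice PI31 (0.929).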

How the data were processed

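The authors deposited raw read counts per gene for each library, in the layout of STAR's gene counts, with an unstranded and both stranded columns. Per the submitters' processing notes, cutadapt and STAR were used with dm6; no source used here gives versions, annotation or read filters. Per the labels' protocols, 50 ng of total RNA went through poly(A) selection, an NEBNext Ultra kit and 12 PCR cycles. The unstranded column was used, since 50.06% to 50.28% of stranded reads fell on the forward strand. Of all 18856997 to 24391317 reads per library, 25.6% to 39.8% were assigned to genes and 50.9% to 65.5% mapped to several places; the summary lines of the tables were left out of library sizes. Mitochondrial genes took 8.67% to 34.6% of assigned reads. Copies of a read made by PCR are not independent molecules, and the floor of 3 reads covers counting error alone.

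Gene names, exons and overlaps came from the Ensembl 115 annotation of BDGP6.54. The members and lists were chosen with earlier results of these data known, and so were the tests. Counts were filtered with filterByExpr, scaled with TMM factors (0.553 to 1.35) and tested in 1 model of all 10 libraries with edgeR 4.0.16 in R 4.3.3 (two-sided quasi-likelihood F-test, 5 residual degrees of freedom, median prior of 6.22, biological coefficient of variation of 15.9%). Nothing in the labels says that the libraries of a genotype came from separate cultures, so p-values measure the spread between these libraries, which may be technical. An exact permutation test of 2 against 2 cannot go below p = 0.333. The 9 comparisons were each of the 4 mutants against wild type, each added mutation, and the interaction. Named throughout were the 9 members, pita, su(Hw), CTCF and grim; from each of the 14 other lists at most 3 called genes per comparison with the largest change; and the 3 genes most correlated with each member. CG13700, CG5103, CG7320, lncRNA:CR45936 and levy, the non-called list genes and the genes named for their stability were named after their values were seen. Of 137 listed genes, 3 had no row. The 18 alternatives were RLE factors, library totals, no filter, DESeq2 1.42.0, a replicate block, a glue score covariate, the CTCF Su(Hw) libraries summed, summed stranded columns, and leaving out each of the 10 libraries. The tests were checked on simulated counts. Sequences were not analysed here.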

Additional observations from a re-analysis of the deposited data

Results flagged for a closer look

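For 3 genes the effect of adding the Su(Hw) mutation differed between larvae with and without the Pita mutation, by the interaction term of the edgeR model. The difference between these effects was -3.50 on the log2 scale for rpr, -2.15 for hid and -1.51 for Xrp1 (edgeR adjusted p = 0.00673, 0.000852 and 0.00446). Over the 18 alternatives the values ran from -5.31 to -2.74 for rpr, from -3.53 to -1.76 for hid and from -2.86 to -1.13 for Xrp1, and each stayed called. Of all genes tested, 45.3% were called in the interaction and 22.1% were called lower. The libraries of the CTCF mutant, on which the interaction rests, held 34.6% and 24.2% mitochondrial reads and 8 rpr reads in all. The part of these in the result was not tested. The gene rpr passed the filter on low counts only through the double-mutant libraries, where it was high. Its interaction is not separate from that pattern.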

How the results depend on the processing

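No called difference of a member changed sign under any of the 18 alternatives. The number of members called moved by over 1.5 times as follows. Scaling by library totals, which shifted the median of all genes by up to 1.06 in the steps between mutants and by -1.40 in the interaction, gave 8 members in the CTCF Pita, 5 in the CTCF Su(Hw) and 2 in the CTCF mutant over wild type, 8 in the CTCF Su(Hw) over the CTCF mutant and 8 in the interaction. The glue score covariate gave 1 in the triple, 1 in the CTCF Pita and 0 in the CTCF Su(Hw) mutant over wild type, 4 in the CTCF Pita over the CTCF mutant and 1 in the triple against the CTCF Pita mutant. Summed stranded columns gave 1 in the triple and 1 in the CTCF Su(Hw) mutant over wild type. They gave 4 in the CTCF Su(Hw) over the CTCF mutant, where Drice was lower (-0.51, adjusted p = 0.0413). In the triple against the CTCF Su(Hw) mutant, no filter gave 5, DESeq2 0 and summed CTCF Su(Hw) libraries 0; in the triple against the CTCF Pita mutant the summed libraries gave 1. The replicate block also gave 1 there, rpr no longer being called (adjusted p = 0.0543), and changed no other call of a member; same-numbered libraries did not deviate together (10 pairs of genotypes, correlations -0.149 to 0.153), so the numbers do not pair the libraries. Leaving out single libraries, where a library left alone is assumed to vary like the other genotypes, gave 1 to 3 members in the triple, 3 to 6 in the CTCF Pita, 0 to 4 in the CTCF Su(Hw) and 0 to 1 in the CTCF larvae over wild type, 3 to 7 and 0 to 3 in the CTCF Pita and CTCF Su(Hw) over the CTCF mutant, 0 to 3 and 0 to 5 in the triple against the CTCF Pita and CTCF Su(Hw) mutants, and 3 to 4 in the interaction. Over all genes the same left 1305 to 2307 called in the triple, 1956 to 4563 in the CTCF Pita, 1142 to 4107 in the CTCF Su(Hw) and 67 to 835 in the CTCF mutant over wild type. Other settings also moved the count of all genes called by over 1.5 times. Over wild type, the glue covariate gave 808 rather than 2248 in the triple, 2082 rather than 3520 in the CTCF Su(Hw) and 60 rather than 357 in the CTCF mutant, the last of which library totals put at 1314, no filter at 733 and the summed libraries at 143. The summed libraries gave 1382 rather than 3520 in the CTCF Su(Hw) mutant over wild type and 2584 rather than 4385 over the CTCF mutant. They gave 891 rather than 1773 and 678 rather than 2390 in the triple against the CTCF Pita and CTCF Su(Hw) mutants. Library totals gave 7324 rather than 4664 in the CTCF Pita and 7194 rather than 4385 in the CTCF Su(Hw) over the CTCF mutant. The cause of these shifts was not tested. Levels of rpr and skl rest on 1 to 47 reads a library. Dark had 12 reads in each wild type library and 10 and 14 in the CTCF libraries, and hid had 12 in CTCF 1.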
